A study of Danio rerio with 16 samples.

Results

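The comparison described here is that of valproic acid (VPA) against vehicle in zebrafish embryos at 48 hours post-fertilization (hpf). It rests on 8 of the 16 samples of the series, all those sampled at 48 hpf, with 4 arrays of vehicle and 4 of VPA embryos. It covers every zebrafish microRNA (miRNA) detected on at least 3 of the 4 arrays of either group. This held for 151 of the 245 on the array. A further 15 were above background on some array but were not tested. The embryos were of the wildtype TL strain. Both groups were treated from 4 hpf until sampling, the controls with ethanol alone and the others with VPA, an antiepileptic drug that inhibits histone deacetylases and is a known teratogen. The labels give no dose and no number of embryos per sample. Total RNA of whole embryos was hybridized to 1-colour Agilent miRNA arrays, and the title of the series names miRNAs of neurodevelopment as its subject.

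MicroRNAs are short RNAs that pair with messenger RNAs through their 5′ end and lower their translation or stability. Many are made in 1 tissue, and several are often cut from 1 transcript, so that neighbours in the genome form a cluster. Paralogues, copies with nearly the same sequence, can lie in different clusters.

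The sequences of 3 groups of probes carry the comparison, and all were taken from the deposited array files. A probe is printed 5′ to 3′ and is complementary to the 3′ part of its miRNA. The first group is shown because its 4 probes lie side by side in the genome and all gave lower signal after VPA. Their positions are those of the array design on danRer6 (Zv8), and together they span chr4:14884996-14886141. No bases are capitalised in this group.
miR-183: cagtgaattctaccagtg
miR-96: agcaaaaatgtgctagtgccaa
miR-182: tgtgagttctaccattgc
miR-182*: tagttggcaagtctagaacc

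The second group is shown because changes of paralogues had opposite signs while their probes differ at few bases. Capitals mark the positions at which the probes of a family differ. miR-18c, miR-19c and miR-20b lie within chr14:32739356-32740011. miR-18a, miR-19a, miR-19b and miR-20a lie within chr8:45337794-45338621, in the cluster that runs from miR-17a to miR-92a.
miR-18a: taTctGcacTaGatgcac
miR-18b: taTctGcacTaAatgcacc
miR-18c: taActAcacAaGatgcacc
miR-19a: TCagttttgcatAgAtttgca
miR-19b: TCagttttgcatGgAtttgc
miR-19c: CGagttttgcatGgAt
miR-19d: TCagttttgcatGgGtt
miR-20a: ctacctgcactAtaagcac
miR-20b: ctacctgcactGt
miR-429: aCggcattaccagAcagt
miR-429b: aTggcattaccagGca

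The last group holds single miRNAs with the largest changes or of known tissues. Among the called miRNAs miR-190b had the largest fitted fall, and miR-16a and miR-206 had the largest rises. The size of that fall depends on a lower limit set on the signal, given below. miR-124, miR-135c and miR-138 belong to the nervous system. miR-16b differs from miR-16a at 1 base of the probe, again in capitals together with the base at which miR-16c, not shown, differs from both.
miR-190b: caaccgaatatcaaacatat
miR-124: ttggcattcaccgcg
miR-135c: cacataggaatagaaagcc
miR-138: ggcctgattcacaaca
miR-206: ccacacacttccttac
miR-16a: cAccaatatttacGtgct
miR-16b: cTccaatatttacGtgct

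Levels below are log2 of the spot signal divided by the 75th percentile of its array, and a change is the VPA mean minus the vehicle mean on that scale. The 75th percentile lay between 881 and 1254 intensity units on the vehicle arrays. On VPA replicates 1 to 3 it lay between 515 and 751, and on VPA replicate 4 it was 2334. The share of probes above background was 51.5% to 54.6% on the vehicle arrays, 45.3% to 49.1% on VPA replicates 1 to 3 and 56.6% on VPA replicate 4. All vehicle arrays sat in column 1 of the slide and all VPA arrays in column 2, so that column and treatment cannot be told apart. The part of array brightness in the results was not tested beyond the fits without single arrays and with other scalings. Whether replicates are separate clutches is not said in the labels. The p-values therefore cover only the variation among the arrayed samples, and the number of arrays limits the precision. Markers of the tissues of a whole embryo, such as miR-9 and miR-124 of the nervous system, miR-206 of muscle, miR-205 of skin, miR-451 of red blood cells and miR-122 of liver, were among the 151 tested.

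After VPA, 70 of the 151 miRNAs passed an adjusted p of 0.05 in limma, which is 46.4% of those tested. The signal was higher for 34 (22.5%) and lower for 36 (23.8%). The falls were larger than the rises. The median fold was 1.30 among the lower and 1.18 among the higher miRNAs, 11 fell at least 1.5-fold and none rose that far. The median change over all tested miRNAs was 0.01 on the scaled signal and -0.39 with the deposited values left unscaled. This median and the near-even split of calls therefore depend on the scaling. When arrays were scaled to probes detected on all 8 arrays, 19 were called higher and 43 lower. The 4 vehicle and 4 VPA arrays did not overlap for 60 of the 70, 31 higher and 29 lower. Over all tested miRNAs they did not overlap for 44.4%, with VPA higher for 24.5% and lower for 19.9%. Of the 151, 15 were tested through the vehicle arrays only, being above background on fewer than 3 VPA arrays. They hold 5 of the falls and 1 of the rises, and their selection favours lower values after VPA. Among these falls are miR-190b, miR-182* and miR-724, which count among the 11 that fell at least 1.5-fold. The remaining falls of these 15 are miR-122 and miR-137. The part of this selection in the larger size of the falls was not tested. Others of the 11, such as miR-96 (-0.74), miR-182 (-0.71) and miR-135c (-0.66), were above background on all 8 arrays. Among the miRNAs seen on all 8 arrays, 32 rose and 29 fell.

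The calls depend on the background processing and less on single arrays. A normexp correction of the raw signal was run with an offset of 50 intensity units, added to every spot before scaling. With it only 3 miRNAs were called, miR-96 and miR-182 lower and miR-16a higher, and 19 of the 70 had the other sign. The separate parts of the correction and of the offset were not tested. With the deposited values left unscaled limma called 0. Of the 70, 44 were called in each of the 8 fits that left out 1 array. Without VPA replicate 4, the brightest array, 67 were called, 58 of them among the 70. "Called" below refers to the fit on the percentile-scaled signal.

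**Figure D1:**
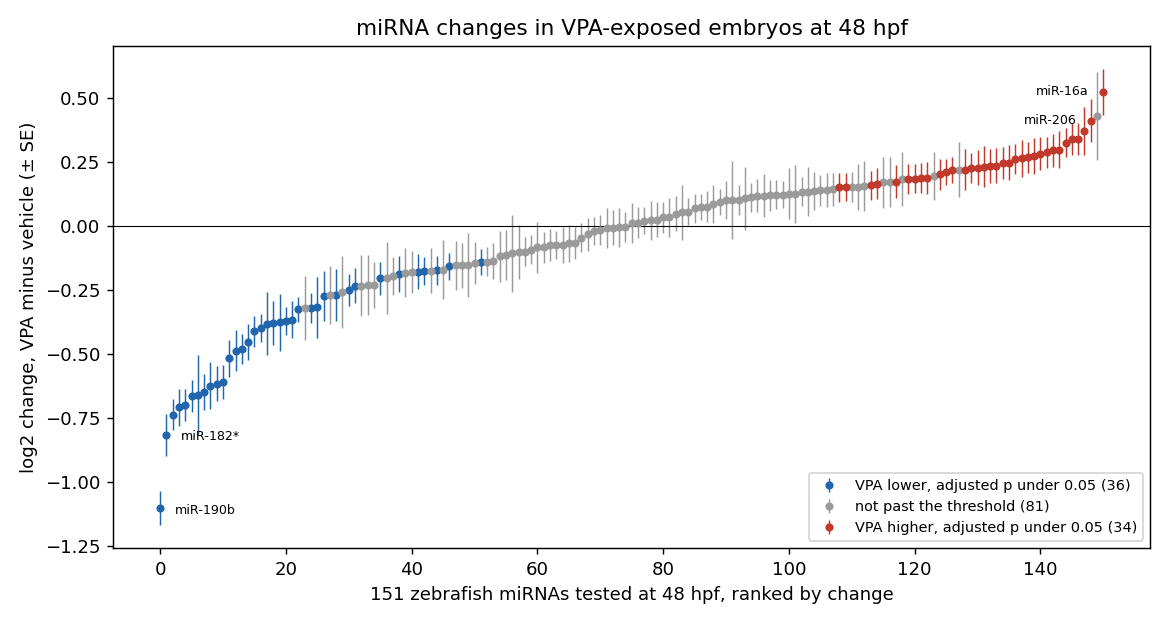
Change in signal (log2, VPA minus vehicle at 48 hpf) of the 151 tested miRNAs in order of their change, with bars for the standard error and colours for the call in limma. The fitted falls reach -1.10 for miR-190b, while the largest rise is 0.53 (miR-16a). All VPA arrays of miR-190b were at the lower limit set on the signal, the floor of -3.44. Its fall is therefore known only as at least 1.54-fold.

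The lists below are to be read against all 151 tested miRNAs, of which 22.5% were called higher, 23.8% were called lower and 76 had changes above 0. Of the lists of miRNAs, that of eye and hair cells had the lowest median, although not with normexp. Its falls came from 1 genomic cluster. miR-183, miR-96 and miR-182 are made together in hair cells of the ear and lateral line and in photoreceptors, and all 3 fell, as did miR-182*, the other arm of the miR-182 hairpin. In bulk embryos, fewer cells of a type and less RNA per cell cannot be told apart.

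miR-96 had levels of 1.12, 1.17, 1.05 and 1.09 on vehicle replicates 1 to 4 and of 0.29, 0.47, 0.30 and 0.43 on VPA replicates 1 to 4. The groups lay far apart, and the signal was 1.67-fold lower (change -0.74 ± 0.06, SE, n = 4 and 4 arrays, adjusted p from limma = 9.35e-06). miR-182 had vehicle levels of 0.87, 0.77, 0.74 and 0.64 and VPA levels of 0.15, 0.13, -0.09 and 0.02. It was 1.63-fold lower (change -0.71 ± 0.07, limma adjusted p = 2.67e-05), again with no overlap.

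miR-183 had vehicle levels of -0.31, -0.59, -0.42 and -0.46 and VPA levels of -1.03, -0.69, -1.07 and -1.60. VPA replicate 4 lay lowest and replicate 2 closest to the vehicle arrays, and the change was -0.66 ± 0.15 (limma adjusted p = 0.00605). miR-182* had vehicle levels of -2.25, -2.52, -2.24 and -2.27 and VPA levels of -3.18, -2.98, -3.10 and -3.28. It was above background on 1 of the 4 VPA arrays, and its change of -0.82 ± 0.08 (limma adjusted p = 2.76e-05) is measured close to the floor of -3.44 and turned to 0.12 with a normexp correction. Calls of the 4 miRNAs held without any single array.

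The remaining members of the eye and hair cell list, miR-204 of retinal pigment epithelium and lens and miR-184 of lens and cornea, were called higher by small amounts. miR-204 changed by 0.15, and its call held only when VPA replicate 3 was left out, the change being 0.13 to 0.17 without each of the other arrays. miR-184 changed by 0.17, and its call held only without vehicle replicate 4, with 0.13 to 0.19 without each of the others. With normexp, miR-204 turned to -0.0857. The list thus held 6 tested miRNAs, 4 lower and 2 higher, with a median of -0.68 (-0.22 with normexp).

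**Figure D2:**
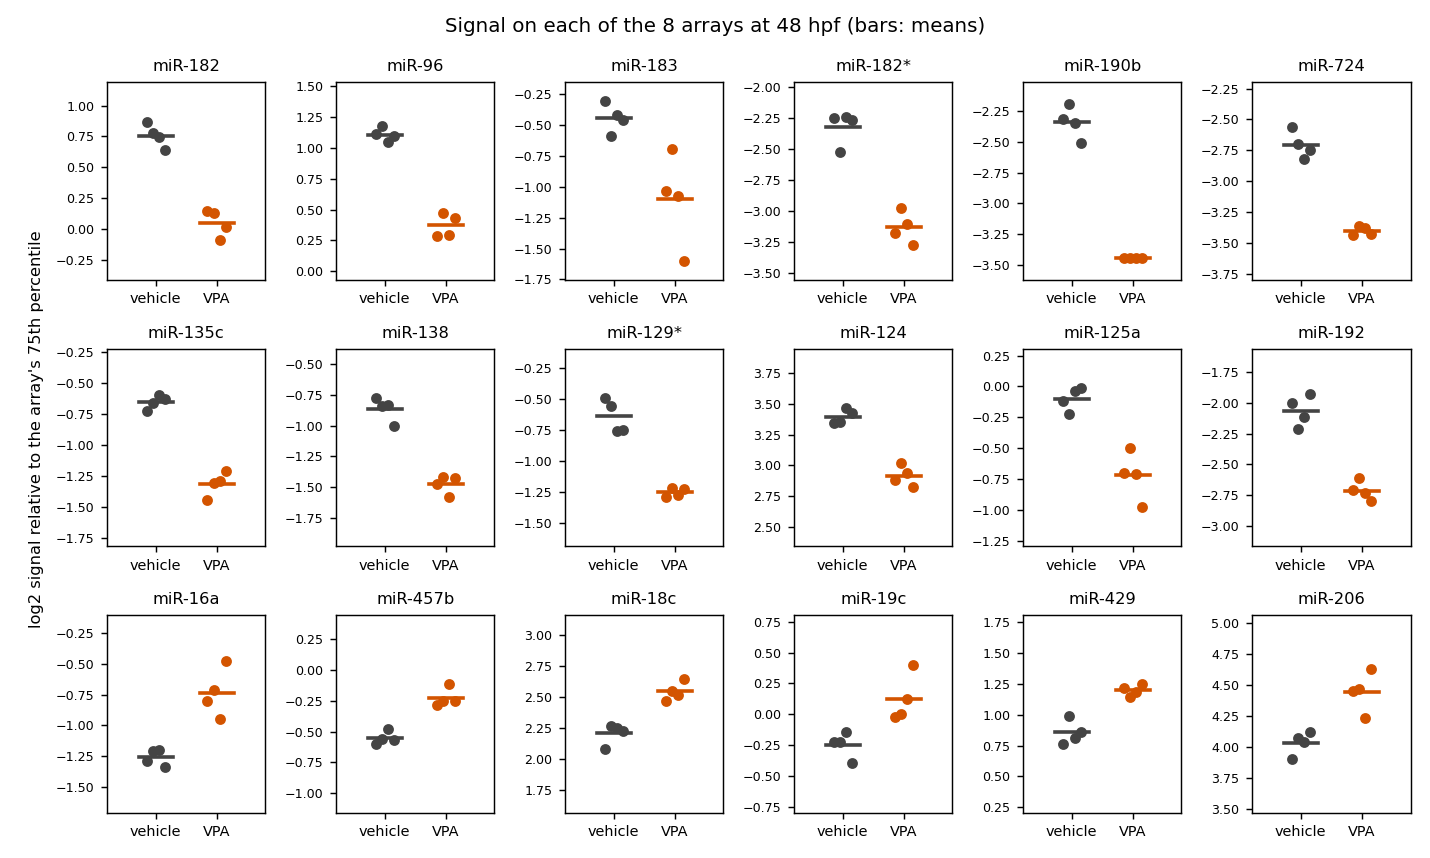
Level on each array (log2 of signal over the 75th percentile of the array) of selected miRNAs, with vehicle and VPA arrays side by side and the group mean as a line. miR-96 and miR-182 lay lower on all 4 VPA arrays than on any vehicle array, and miR-206 and miR-16a lay higher.

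Of the nervous system list, 15 of 22 miRNAs were tested, 9 fell and 1 rose, with a median of -0.27 (-0.24 with normexp). With normexp none of these calls remained, and 4 of the 15 lay above 0, against 1 on the percentile-scaled signal. miR-124, the main miRNA of neurons, had vehicle levels of 3.34, 3.35, 3.47 and 3.42 and VPA levels of 2.88, 3.02, 2.94 and 2.82. All VPA arrays lay below all vehicle arrays, and the signal was 1.39-fold lower (change -0.48 ± 0.06, limma adjusted p = 0.000106). miR-135c changed by -0.66 ± 0.06 (1.58-fold lower) and miR-138, a brain miRNA, by -0.61 ± 0.07. miR-129* changed by -0.61, miR-218b, whose family marks motor neurons, by -0.49, and miR-7a, of brain and endocrine cells, by -0.45. These 6 falls were called without any single array.

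Further falls in the list were less firm. miR-137 changed by -0.37 and was above background on 1 of the 4 VPA arrays. Its call was lost without VPA replicate 1, 2 or 3, at -0.35 to -0.34, and with normexp its change was 0.44. miR-219, of the oligodendrocyte lineage, changed by -0.27, and its call was lost without VPA replicate 1, 3 or 4 or vehicle replicate 2 or 3, at -0.27 to -0.23, and its change with normexp was 0.0244. miR-9*, the other arm of the neural progenitor miRNA miR-9, changed by -0.23 and lost its call without VPA replicate 3 or vehicle replicate 2, at -0.20 and -0.18. For miR-9 itself, which was saturated on 1 of the 4 VPA arrays, the measured change was -0.04, with a 95% interval of -0.17 to 0.08. The only rise was miR-153b, with 0.23, which lost its call without VPA replicate 3 or vehicle replicate 3 or 4, at 0.18 to 0.23. Values for miR-128 and miR-218a, which were not called, were -0.15 and -0.14.

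miR-190b was the one miRNA above background on all 4 arrays of a group and on none of the other. Its vehicle levels were -2.32, -2.19, -2.35 and -2.51, and all 4 VPA arrays were at the floor of -3.44. Signal was at least 1.54-fold lower (fitted change -1.10, limma adjusted p = 7.97e-07). The error of this fit is understated, since values at the floor do not vary. The 3 other probes of miR-190b were at the floor in both groups, as were the other probes of miR-135c, miR-137, miR-219, miR-724 and miR-2188. These 6 calls therefore rest on 1 probe each. For the remaining 64 called miRNAs, each further probe off the floor changed in the same direction as the one tested. Some of these changes were close to 0, as for miR-93 (-0.0031), 1 probe of miR-182* (-0.0108) and miR-22b (0.0242). In the list of miR-103, miR-107 and miR-190, made from introns of host genes in vertebrates, 3 of 4 tested miRNAs fell, and the median was -0.26. miR-103 changed by -0.32 and miR-107 by -0.20, and the call of miR-107 was lost without VPA replicate 3 or vehicle replicate 1 or 2, at -0.19 to -0.16.

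Of the muscle list, 3 of 7 tested miRNAs were called higher and none lower, where 22.5% of all tested miRNAs were called higher and 46.4% in either direction. All 7, of 8 on the array, had changes above 0, as did 76 of all 151 tested. The list median was 0.22. With normexp 4 of the 7 lay above 0, and the median was 0.04. miR-206, a miRNA of skeletal muscle, had vehicle levels of 3.90, 4.07, 4.04 and 4.12 and VPA levels of 4.45, 4.47, 4.23 and 4.63. It was 1.33-fold higher (change 0.41 ± 0.08, limma adjusted p = 0.00286), and the groups did not overlap. miR-133a*, the other arm of miR-133a, changed by 0.30 and miR-133c by 0.25. Not called were miR-1 (0.22), miR-133b (0.13), miR-133a (0.12) and miR-499 (0.11), of which miR-1 and miR-133 are made in skeletal and heart muscle. The probes of miR-133a, miR-133b and miR-133c differ at 1 or 2 bases, and cross-hybridization between them was not tested. miR-133c and miR-206 lie together at chr17:5895840-5900127 on danRer6, and both rose. The miR-206 probe also lies beside miR-133b, which was not called, at chr20:18914927-18916220. The signal of miR-206 can therefore not be assigned to either position.

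miR-16a showed the largest rise. The next largest change, 0.43 for miR-725, was not called (limma adjusted p = 0.0571). The miR-16a vehicle levels were -1.29, -1.21, -1.20 and -1.34 and the VPA levels -0.80, -0.71, -0.95 and -0.48. Every VPA array lay above every vehicle array, and the signal was 1.44-fold higher (change 0.53 ± 0.09, limma adjusted p = 0.00094). miR-16a belongs to the miR-15/16 family, which represses cell cycle genes in mammals. All 7 tested members of 9 had changes above 0 and 4 were called higher, with a median of 0.21. With normexp 4 of the 7 lay above 0, again with a median of 0.04. The probes of miR-16a, miR-16b, miR-16c and miR-457b differ from each other at 1 to 3 bases, so their shared direction is not separate evidence from each. miR-457b changed by 0.33 and miR-16b by 0.21. miR-15a, the neighbour of miR-16b at chr1:46862539-46862773, changed by 0.22 and kept its call only without VPA replicate 1 or 3, with 0.17 to 0.24 without each of the other arrays. The changes of miR-16c (0.14), miR-15b (0.08) and miR-457a (0.07) were not called.

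**Figure D3:**
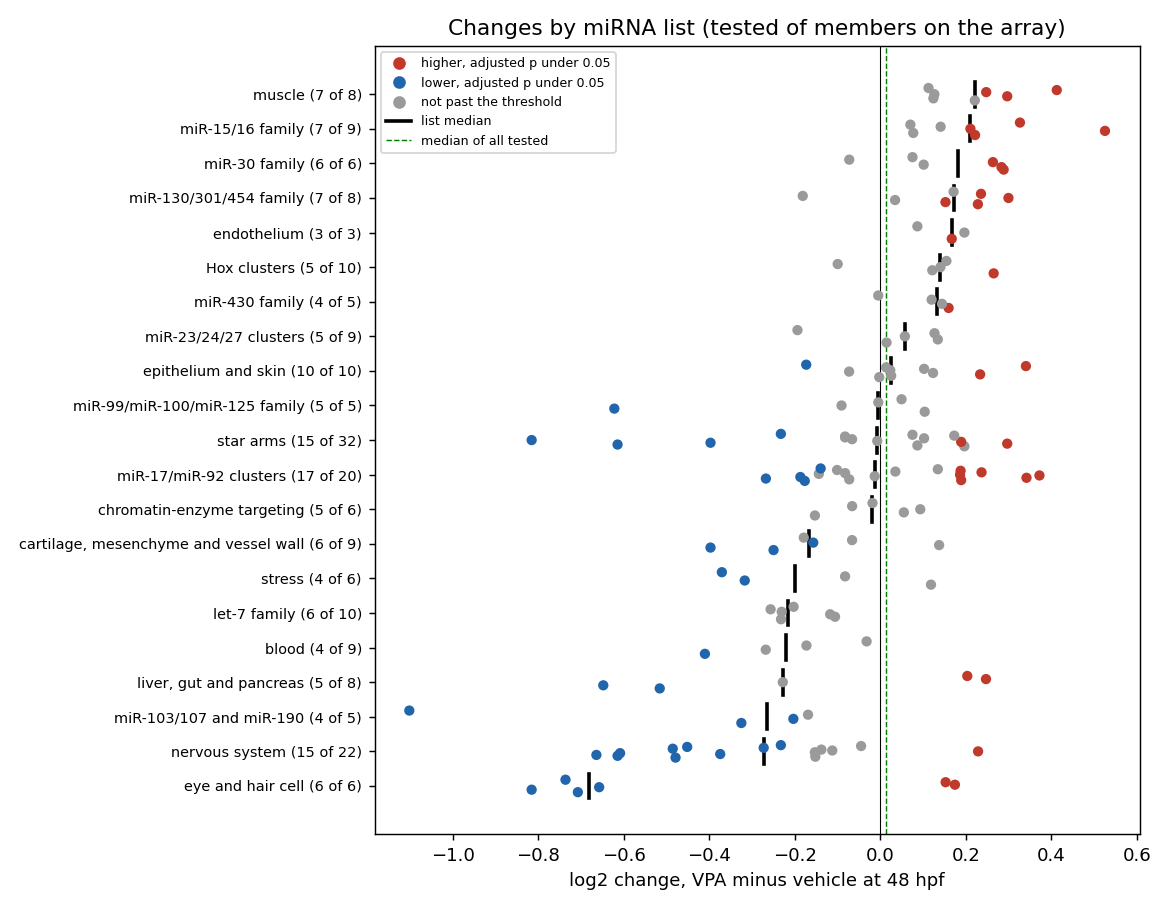
Changes (log2, VPA minus vehicle) of the tested members of each list of miRNAs, 1 point per miRNA coloured by the call, with a black bar at the median of the list and a dashed line at the median of all tested miRNAs. Members of the nervous system list lie mostly below 0 and those of the muscle and miR-15/16 lists lie above it.

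The miR-17/miR-92 clusters are known for promoting cell growth. Of their 17 tested members, 6 were called higher and 4 lower, with a median of -0.01. The 4 miRNAs of the cluster on chromosome 14 all rose, with a median of 0.29 (0.07 with normexp). miR-18c had vehicle levels of 2.08, 2.27, 2.25 and 2.23 and VPA levels of 2.47, 2.55, 2.52 and 2.65, a change of 0.34 ± 0.06 (1.27-fold higher, limma adjusted p = 0.00147), with no overlap. miR-19c changed by 0.37, miR-20b by 0.24 and miR-363 by 0.19. The call of miR-363 was lost without VPA replicate 3 or vehicle replicate 3 or 4, at 0.14 to 0.19, and its change was -0.0113 with normexp.

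In the cluster on chromosome 8, only miR-17a* rose (0.19), while miR-17a (-0.18) and miR-19a (-0.19) fell, with a median of -0.09 over its 8 miRNAs. These 3 calls were weak. miR-17a kept its call only without VPA replicate 3 and lay at -0.20 to -0.13 without each of the others. miR-19a kept it only without VPA replicate 2 or vehicle replicate 4, at -0.21 to -0.13 otherwise. miR-17a* kept it without VPA replicate 2 or 4 or vehicle replicate 1, at 0.15 to 0.19 otherwise. Uncalled members were miR-20a (-0.14), miR-92a (-0.10), miR-20a* (-0.08), miR-18a (-0.07) and miR-19b (-0.01). Of these, miR-20a* was above background on 1 of the 4 VPA arrays. In another cluster, at chr14:354252-354500, miR-19d changed by 0.19, miR-93 by -0.14 and miR-25, not called, by 0.04. The call of miR-19d was lost without vehicle replicate 3 or 4 (both 0.18), and its change was -0.0144 with normexp. The call of miR-93 was kept only without vehicle replicate 1 or VPA replicate 4, at -0.15 to -0.12 otherwise.

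The ratio of paralogues within an array does not depend on the scaling between arrays. It can still depend on the background processing, and the ratios were not computed with normexp. The pairs below were chosen after their values were seen, so they are described without a test. The difference between miR-18c and miR-18b was 0.46 to 0.64 on the vehicle arrays and 0.90 to 1.47 on the VPA arrays, a shift of 0.61. That between miR-19c and miR-19a shifted by 0.56, and that between miR-20b and miR-20a by 0.38. For each of these pairs the vehicle and VPA arrays did not overlap. miR-18b itself was called lower at -0.27, and the call held only without VPA replicate 3 or vehicle replicate 1, with -0.30 to -0.19 otherwise. The probes of miR-18b and miR-18c differ at 4 bases, those of miR-19a and miR-19c at 3, and those of miR-20a and miR-20b at 1 over their shared length, so cross-hybridization between copies was not tested.

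Over the 10 tested epithelial miRNAs, 2 rose and 1 fell, and 1 of these calls, that of miR-429, held without any single array. The miR-200 family keeps epithelial cells in their state by repressing Zeb factors. In the cluster at chr23:23553732-23555534, miR-429 changed by 0.34 ± 0.06 (limma adjusted p = 0.0013), with vehicle levels of 0.76, 0.99, 0.81 and 0.86 and VPA levels of 1.21, 1.14, 1.18 and 1.25. The groups did not overlap. Its neighbour miR-200b changed by 0.23, a call lost without VPA replicate 1 or 4 or vehicle replicate 1, 3 or 4, at 0.19 to 0.22. In the second cluster, at chr6:44227989-44231062, miR-429b was lower at -0.17, a call lost without VPA replicate 2 or 3 or vehicle replicate 1, 3 or 4, at -0.18 to -0.15. With normexp the changes of miR-200b and miR-429b turned to -0.0026 and 0.36. Within arrays, miR-429 moved by 0.51 against miR-429b. The skin miRNAs miR-203a, miR-203b and miR-205 were not called, with -0.07, 0.02 and 0.01.

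**Figure D4:**
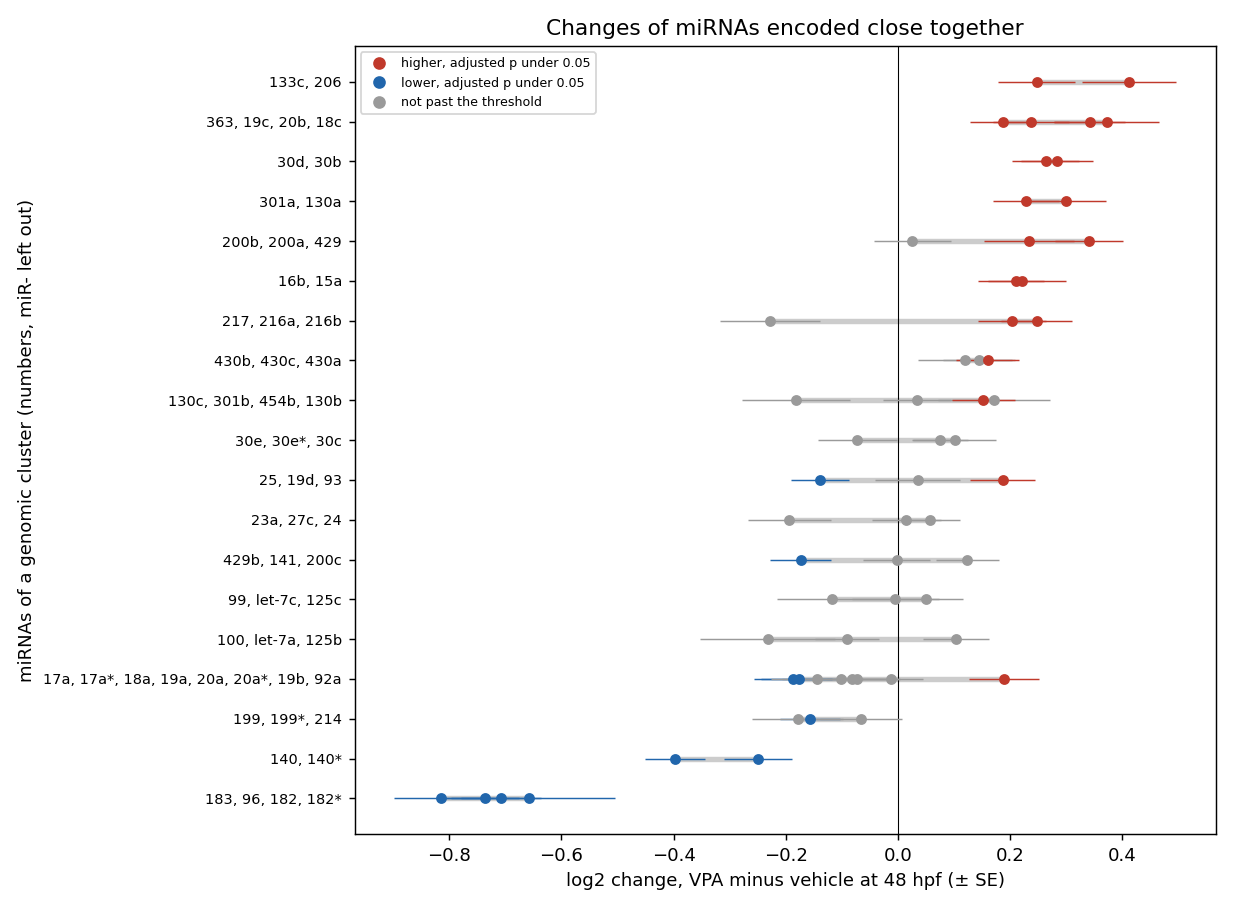
Changes (log2, VPA minus vehicle) of miRNAs in genomic clusters on chromosomes, in which each lies within 10000 bases of the next. Drawn are the 19 clusters with 3 or more tested miRNAs or with both called, and a set of miRNAs found at several positions is drawn once. Each point is 1 miRNA with its standard error, coloured by the call. The 4 miRNAs of the miR-183 cluster lie between -0.82 and -0.66, and the 4 of the miR-363 cluster lie between 0.19 and 0.37.

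Over the 42 clusters on chromosomes with 2 or more tested miRNAs, 2 held calls in both directions. These were the chromosome 8 copy of miR-17/miR-92 and that of miR-25. Positions on scaffolds outside the chromosomes, such as those of miR-1, miR-133a* and miR-18b, were not included. Most of the 42 held fewer than 2 calls and so could not show both directions. Some, such as that of miR-9 and miR-9*, count the same probes again at another position. Both miRNAs rose in the pairs of miR-30d and miR-30b (0.26 and 0.28, chr16:23860162-23860463) and of miR-301a and miR-130a (0.30 and 0.23, chr10:31088531-31092958). Both arms of miR-140, a cartilage miRNA, fell, with -0.25 for miR-140 and -0.40 for miR-140* (chr25:34937160-34937219). Of 13 hairpins with both arms tested, the arms of 10 had changes of the same sign.

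The miR-30 family held 3 rises among 6 tested (median 0.18), with miR-30a at 0.29. The family of miR-130, miR-301 and miR-454 held 4 among 7 (median 0.17), of which miR-301c changed by 0.24 and miR-130b by 0.15. miR-301b, whose probe differs from that of miR-301c at 1 base, changed by -0.18 and was not called. The probes of miR-301a and miR-301c, and those of miR-30a and miR-30d, also differ at 1 base. Within these pairs the shared direction is thus not separate evidence from each. The call of miR-130b held only without VPA replicate 4, at 0.12 to 0.17 otherwise, and its change was -0.0868 with normexp.

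In liver, gut and pancreas, 5 of 8 miRNAs were tested. miR-122, the main liver miRNA, had vehicle levels of -2.55, -2.40, -2.45 and -2.30 and VPA levels of -3.01, -2.91, -3.04 and -2.81, a change of -0.52 ± 0.07 (limma adjusted p = 0.00025). It was above background on 2 of the 4 VPA arrays and so was tested through the vehicle arrays only. This selection favours lower values after VPA. With a normexp correction the change of miR-122 turned to 0.31. miR-192, of gut and liver, changed by -0.65 and was above background on 3 of 4, and turned to 0.14 with normexp. The pancreatic miR-216b and miR-217 rose by 0.25 and 0.20 at chr22:31474865-31475408. With arrays scaled to probes detected on all 8 arrays, neither kept its call, and the cluster held 0 higher and 1 lower. miR-217 lost its call without vehicle replicate 3, where the change was again 0.20. The change of miR-216a, in the same cluster, had the other sign and was not called at -0.23. Without VPA replicate 2 miR-216a was called lower, at -0.31 (limma adjusted p = 0.0122).

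Of the 4 tested blood miRNAs 1 fell, and of the 3 tested endothelial miRNAs 1 rose. miR-142a-3p, of white blood cells, changed by -0.41 (0.32 with normexp), and the red cell miRNAs miR-144 and miR-451 were not called at -0.27 and -0.03. miR-126 of endothelium changed by 0.17, and its call held only without VPA replicate 1, at 0.12 to 0.19 otherwise. miR-221 and miR-222 changed by 0.22 and 0.19, and the call of miR-222 was lost without VPA replicate 3 or vehicle replicate 1 or 2, at 0.15 to 0.19. With normexp miR-126, miR-221 and miR-222 turned to -0.0416, -0.0101 and -0.00071. Of 6 tested miRNAs of cartilage, mesenchyme and vessel wall, 3 fell, namely both arms of miR-140 and miR-199 (-0.16). The call of miR-199 was lost without VPA replicate 1 or 3 or vehicle replicate 1, 2 or 3, at -0.17 to -0.12.

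In further lists, single members stood out. miR-125a, a relative of the developmental timing miRNA lin-4 of worms, had vehicle levels of -0.12, -0.23, -0.04 and -0.02 and VPA levels of -0.70, -0.50, -0.71 and -0.98. It was 1.54-fold lower (change -0.62 ± 0.09, limma adjusted p = 0.000356), while miR-125b (-0.09) and miR-125c (-0.0045) were not called. None of the 6 tested let-7 miRNAs, which promote differentiation, was called. Each had a change below 0, from -0.26 to -0.11, while with normexp 4 of the 6 lay above 0. Their probes differ from each other at 1 to 3 bases, so the shared sign is not separate evidence from each. In fits without 1 array, let-7a was called lower without VPA replicate 4 and let-7d without vehicle replicate 1, both at -0.32 (limma adjusted p = 0.0353 and 0.0491). Of the stress list, 2 of 4 tested miRNAs fell. miR-34, a target of p53 in mammals, changed by -0.37, and miR-210, induced by hypoxia in mammals, by -0.32. Not called were miR-21 (0.12) and miR-210* (-0.08), the other arm of miR-210. The call of miR-210 held only without VPA replicate 3 or vehicle replicate 4, at -0.33 to -0.22 otherwise.

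Of the miR-430 family, which clears maternal messenger RNA early in zebrafish development, 1 of 4 tested was called, miR-430a at 0.16. Its call held only without VPA replicate 3 or vehicle replicate 4, at 0.14 to 0.16 otherwise, and with normexp its change was -0.0811. Of the Hox cluster miRNAs, miR-10a changed by 0.27, and miR-10b (0.12), miR-10c (0.14), miR-10d (-0.10) and miR-196a (0.15) were not called. Neither the list of miRNAs known to target chromatin enzymes nor that of miR-23, miR-24 and miR-27 held a call, with 5 tested in each. The latter list held 3 rises with quantile normalization and 1 fall with scaling to probes detected on all 8 arrays. In it, miR-27c changed by -0.19 and was called lower without VPA replicate 4 (-0.24) or vehicle replicate 4 (-0.23). Other falls of known members were miR-724 (-0.70, above background on 1 of 4 VPA arrays), miR-139 (-0.38), miR-181c (-0.37) and miR-338 (-0.32). With normexp, miR-724 turned to 0.20 and miR-139 to 0.0122. Rises outside the lists included miR-22a, with 0.27, and miR-22b, with 0.28. miR-22b lay close to the floor, was above background on 3 vehicle and 2 VPA arrays, and its other probe changed by 0.0242. The last 2 calls were miR-738 (-0.38) and miR-2188 (-0.17). That of miR-738 held only without VPA replicate 1 or vehicle replicate 2, at -0.40 to -0.30 otherwise. That of miR-2188 was lost without VPA replicate 1, 2 or 3 or vehicle replicate 1 or 2, at -0.17 to -0.15, and its change was 0.15 with normexp.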

How the data were processed

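The authors hybridized total RNA to Agilent miRNA arrays and deposited scanner files with the intensity of each spot, background-subtracted within the array by Feature Extraction (version 9.5.3.1 per the file headers, 9.5 in the submitters' processing notes) and not scaled between arrays. The other deposited columns are flags, per the file headers, for spots above background, saturated or non-uniform. The deposited value table holds the same intensity, with 100% of values within 1%. An array carries 10360 spots besides the controls, from 548 probes, 518 of which detect 245 zebrafish miRNAs.

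The 715 control spots and flagged outlier spots were left out. Signal was divided by the array's 75th percentile (on average 51.3% of probes were detected), floored at 0.0919 (-3.44 on the log2 scale), log2 transformed and averaged over a probe's spots. The brightest probe on average represented its miRNA. Testing required the majority of its spots to be above background, by the scanner software's flag, in 3 or more of a group's 4 arrays. Groups were compared with limma 3.58.1 (lmFit, eBayes, two-sided) in R 4.3.3, adjusted by Benjamini-Hochberg over 151 miRNAs at 0.05, and the code was tested on simulated data. Figures used matplotlib 3.10.9 in Python 3.11.15. Where 1 group was below background on every array, the fold was taken against the lowest signal above background of each array and given as a bound.

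The members and lists were chosen with earlier results of these data known. The rule for named miRNAs took the 15 largest called rises, the 15 largest called falls, any miRNA seen on all arrays of 1 group and none of the other, up to 4 members per list by size of change, the 10 with the highest vehicle signal, and the other arms of these. Further called or neighbouring miRNAs were named after their values were seen. Same-numbered arrays did not deviate together in every case (residual correlations 0.11, -0.16, 0.34 and -0.16), so the numbers were not taken to pair samples. Alternatives were other scalings, background correction, filters, floor, probe rules, all 16 arrays in the fit, a replicate block and leaving out each array.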

Additional observations from a re-analysis of the deposited data

Results flagged for a closer look

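In 198 groups of 4 arrays checked for 1 value far from the other 3, 11 stood apart, and chance gives about 1 in 20. VPA replicate 4 had a 75th percentile of 2334 intensity units, against 515 to 751 on the other VPA arrays. Vehicle replicate 3 had 6.51% of spots marked as outliers, against 3.32% to 3.63%. On the vehicle arrays, miR-10a was 1.94 on replicate 2 (others 1.70 to 1.72), miR-10c was 0.34 on replicate 4 (others 0.50 to 0.53), and miR-144 was -1.97 on replicate 1 (others -1.71 to -1.69). Also on vehicle arrays, miR-182* was -2.52 on replicate 2 (others -2.27 to -2.24), miR-199 was 2.90 on replicate 1 (others 2.76 to 2.78), and miR-20a* was -3.01 on replicate 3 (others -3.20 to -3.18). On the VPA arrays, miR-200c was -0.42 on replicate 4 (others -0.60 to -0.57), miR-22b was -3.26 on replicate 3 (others -2.98 to -2.97), and miR-26a was 1.502 on replicate 2 (others 1.60 to 1.62).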

How the results depend on the processing

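Against 70 called miRNAs (34 higher, 36 lower), a normexp background correction with its offset of 50 left 3 (1 higher, 2 lower). With this correction 30 were at an unadjusted p under 0.05 in limma. Under it 19 of the 70 changes turned, to 0.31 for miR-122, -0.0416 for miR-126, 0.32 for miR-142a-3p, 0.12 for miR-182*, 0.14 for miR-192, -0.0026 for miR-200b, 0.36 for miR-429b, -0.0811 for miR-430a, 0.20 for miR-724, 0.0122 for miR-139, 0.44 for miR-137, 0.0244 for miR-219, 0.15 for miR-2188, -0.0868 for miR-130b, -0.0857 for miR-204, -0.00071 for miR-222, -0.0144 for miR-19d, -0.0113 for miR-363 and -0.0101 for miR-221. The cause was not tested. The deposited table without scaling gave 0 calls in limma (0 higher, 0 lower), with 9 at an unadjusted p under 0.05, and its median change was -0.39. Scaling to probes detected on all 8 arrays gave 19 higher and 43 lower, so that 30.6% of calls were higher against 48.6%. Quantile normalization gave 39 higher and 28 lower. The fit of all 16 arrays gave 47 calls. The replicate block gave 64 (27 higher, 37 lower), 62 of them among the 70. Leaving out 1 array gave 49 to 67 calls, 22 to 33 higher and 26 to 34 lower. The number higher was 22 without vehicle replicate 3. Such fits also called some miRNAs outside the 70, among them miR-1 (0.33 without vehicle replicate 2), miR-128 (-0.29 without VPA replicate 4) and miR-181a (-0.40 without VPA replicate 2). With normexp, medians of lists turned for liver, gut and pancreas (0.12), blood (0.25), let-7 (0.13), miR-430 (-0.09), chromatin-enzyme targeting (0.48) and star arms (0.16). Low signal limits dim miRNAs: 15 were above background on fewer than 3 VPA arrays, and 94 zebrafish miRNAs were not tested, 79 of them above background on no array.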

Other observations

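Of 14 pufferfish names on the array, that of miR-184 was above background on all 8 arrays, with a mean level of -0.54 in vehicle and -0.43 in VPA embryos, a difference of 0.11. Each VPA array lay on the same side of the vehicle mean as the call for each of the 70 called miRNAs. The calls were made from these same arrays, so this is not separate evidence for them. Uncalled miRNAs such as miR-144 and let-7c also had all 4 VPA arrays on the side of their change. On VPA replicate 4, the brightest array, 99 of the 151 miRNAs lay outside the range of the other 3 VPA arrays, as did 43 of the 70 called. Across the 151 miRNAs, the change had a Spearman correlation of 0.03 with the GC content of the probe and of -0.10 with its length, given as a description since probes share arrays. Of the 10 miRNAs with the highest vehicle signal, miR-206 was called higher and miR-17a, miR-124 and miR-9* lower, while miR-9, miR-19b, miR-20a, miR-130c, miR-133b and miR-205 were not called.

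The groups of 7 miRNAs did not overlap although the test did not call them, among them miR-181a (-0.32), miR-200c (0.12), miR-430b (0.14) and miR-16c (0.14).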
